A study of Mus musculus with 4 samples.

Results

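NKX2.2, a homeodomain transcription factor, was examined for binding at 7 genes that mark pancreatic alpha cells: Gcg, Pou3f4, Ttr, Gc, Sphkap, Etv1 and Mamld1. The genes were taken by name out of 21887 protein-coding genes, with earlier results of these data known. For each one, the NKX2.2 summits inside the gene or within 10, 50 and 100 kb of it were collected. The study made 2 NKX2.2 ChIP libraries and 2 input libraries, all from alphaTC6 cells labelled wild type, a mouse line of alpha cell type. In chromatin immunoprecipitation and sequencing (ChIP-seq), DNA held by a protein is enriched with an antibody and set against unenriched input DNA. The authors' single summit list holds 7384 entries, 7380 of them on assembled chromosomes. Each summit is the point of highest enrichment in a peak, and its score is the authors' own value for it, taken from the file format as the −log10 q-value against input, so that 2 would correspond to a q-value of 0.01. As background, alphaTC lines were derived from glucagon-producing tumours of mice carrying a viral oncogene under a glucagon gene promoter. The list has no value per library. Depth is therefore unknown, no value has a replicate error, no test over samples could be made, and marker expression in these cells was not analysed here.

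Alpha cells release glucagon, the hormone that raises blood glucose by driving glucose output from the liver. NKX2.2 is needed for some islet endocrine cells to form and to keep their type, and it can activate or repress genes. Homeodomain factors of the NKX2 class bind DNA around the core AAGTG. The study's title pairs NKX2.2 with KLF4, a zinc finger factor of a family that binds GC-rich and CACCC-containing sites.

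Of the 7 genes, 4 had a summit in the gene or within 10 kb: Gcg, Ttr, Sphkap and Etv1. By the same rule 25.8% of all protein-coding genes had one. Etv1 had 4 summits and the other three had 1 each. Mamld1 had no summit this close, but a high-scoring one 28.7 kb away, and Pou3f4 and Gc had none within 100 kb. Of the 6 members with a RefSeq promoter window, Gcg alone had a summit in it, and that sequence is shown first.

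The Gcg promoter is printed because its summit lies in it. It is 300 bases long at chr2:62483604-62483903 (GRCm38, minus strand, RefSeq), from 250 bases before the start site to 50 from the start site on, read 5′ to 3′. Capitals mark AAGTG and CACCC on either strand, so that GGGTG is CACCC on the other strand.
Gcg promoter: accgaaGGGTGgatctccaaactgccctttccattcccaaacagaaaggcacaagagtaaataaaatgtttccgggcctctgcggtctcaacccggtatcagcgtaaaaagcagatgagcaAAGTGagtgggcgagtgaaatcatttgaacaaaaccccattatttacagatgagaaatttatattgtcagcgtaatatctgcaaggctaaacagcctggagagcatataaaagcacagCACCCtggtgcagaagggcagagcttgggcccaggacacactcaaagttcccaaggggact

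The Gcg summit, at position 62483792, is base 112 of this sequence and lies 139 bp before the start site. The nearest AAGTG spans bases 122 to 126, and its centre is 12 bp from the summit. The Gcg window held 1 AAGTG and 2 CACCC, the latter at bases 7 to 11 and 240 to 244. Neither of the longer words TAAGTG and CAAGTG was in it, since the base before the core is A.

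The core is shown next in the promoters of the members with and without a summit. Each line is 31 bases centred on an AAGTG, read so that the core in capitals runs forward, with all 5 stretches on the minus strand of GRCm38. They lie at chr2:62483765-62483795 (Gcg), chrX:110814210-110814240 (Pou3f4), chr5:89458023-89458053 (Gc), and chr1:83408397-83408427 and chr1:83408375-83408405 (both Sphkap). The AAGTG in the window of the downstream Etv1 start, at bases 296 to 300 on the plus strand, is not shown. A stretch of 31 bases around it would pass the end of the window.
Gcg: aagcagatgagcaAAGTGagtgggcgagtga
Pou3f4: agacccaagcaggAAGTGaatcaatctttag
Gc: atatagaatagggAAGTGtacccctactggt
Sphkap, first: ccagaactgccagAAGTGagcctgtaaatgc
Sphkap, second: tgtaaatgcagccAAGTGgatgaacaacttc

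Having the core did not set the Gcg promoter apart. AAGTG was in 46.4% of 32851 RefSeq promoter windows of the same length, and in 45.1% of the 1624 windows that held a summit. A stretch of 51 bases is shorter than a window, so its shares are not comparable with these. The stretch of 51 bases around the Gcg summit had AAGTG and no CACCC. At the same place in the window 9.58% of all windows had AAGTG. Of the 1217 summits with such a stretch around them 10.4% did, a share close to that of all windows. For CACCC the 2 shares were 13.9% and 15.2%. The Pou3f4 and Gc promoters had the core and no summit within 100 kb. CAAGTG, found in the second Sphkap stretch, was in 13.6% of windows, and TAAGTG, found in the window of the downstream Etv1 start, in 9.20%. In the Mamld1 window and that of the upstream Etv1 start the letters AAGTG were not found on either strand. CACCC was in 57.5% of all windows and in 63.4% of those with a summit. It was in the Gcg, Pou3f4 and Mamld1 windows and that of the upstream Etv1 start. A further word, CAGATG, was searched after the Gcg sequence had been seen, because it begins at the summit base itself (bases 112 to 117). It occurred again at bases 168 to 173, and was in 17.2% of all windows and 11.3% of windows with a summit. Among the members it was also in the window of the downstream Etv1 start, which held no summit.

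Gcg encodes proglucagon, the precursor of glucagon and of the glucagon-like peptides. Gcg (gene ID 14526) spans chr2:62474530-62483653. The score of its summit was 6.78, rank 5986 of 7380. This is below the lower quartile of all placed summits, 7.98, and below their median of 13.7. On chromosome 2 it ranked 490 of 597. It was the only summit within 100 kb of Gcg, the next being 138.0 kb from it, and 3 lay within 1 Mb of the gene. So the summit stood alone and in the lower part of the list, with Gcg as its nearest protein-coding gene and the only one within 10 kb. A summit in a promoter window was found for 7.73% of the 17492 protein-coding genes with such a window. Gcg was 1 of 6 members with a window and the only one of the 6 with a summit in it.

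Etv1 encodes an ETS family transcription factor. Etv1 (gene ID 14009) spans chr12:38780082-38870483, with annotated starts at 38780082 and 38783711 on the plus strand. Its 3 summits around the upstream start lay 1369 bp before it (position 38778713, score 11.8), 514 bp before it (38779568, score 7.95) and 1154 bp after it (38781236, score 4.26). Another, at 38820820 inside the gene with a score of 4.89, was 37.1 kb past the downstream start. The last, at 38929184 with a score of 5.73, lay 58.7 kb beyond the gene's far end. The scores near the upstream start fell in coordinate order, and all 5 were under the list's median, at ranks 4238, 5547, 6929, 6716 and 6378. Etv1 thus had the most summits of the members and no strong one. Within 10 kb, 4 or more summits were found at 0.745% of protein-coding genes of any length. Etv1 is 90.4 kb long, and no such share was taken for genes of its length. Of the 4 at Etv1, 2 had a score of at least 5 and 1 a score of at least 10. Neither Etv1 promoter window held a summit, as the nearest lay farther out than the 250 bases the window reaches.

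Sphkap encodes an anchoring protein that binds protein kinase A and interacts with sphingosine kinase. The gene (gene ID 77629) is 153.0 kb long at chr1:83255442-83408411. One summit lay inside it, at position 83268515 with a score of 9.22 and rank 5093. It was 13073 bp from the downstream end of the gene and 139685 bp from the annotated start, so it was far from the promoter. A second, stronger summit lay upstream at 83505525, 97.1 kb from the gene, with a score of 48.0 and rank 931. It stood outside any annotated gene, and Sphkap was still its nearest protein-coding gene. Within 1 Mb of Sphkap there were 11 summits, the most of any member.

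Mamld1 encodes a mastermind-like transcriptional coactivator. The gene (gene ID 333639) is 106.0 kb long at chrX:71050036-71156056. Its 1 summit within 100 kb lay upstream at position 71021372, 28.9 kb before the annotated start. The score of 67.6 ranked 595 of 7380, in the top 8.06% of the list, and was the highest of all 12 summits within 100 kb of a member. On the X chromosome it was the tenth of 62. The position falls within the gene model Gm38595, while the nearest protein-coding gene is Mamld1. In or within 50 kb, 9.73% of the 966 protein-coding genes on the X chromosome had a summit, against 43.8% of all protein-coding genes.

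Pou3f4 encodes a POU homeodomain transcription factor, also known as Brn4, that binds the glucagon gene promoter. Pou3f4 (gene ID 18994) spans chrX:110814379-110819108. Its nearest summit was 5.42 Mb away, at position 105392412 with a score of 40.2, and no summit lay within 1 Mb. Summits are sparse on this chromosome: its genes had a median distance of 844 kb to the nearest one, and 9.42% of them were farther away than Pou3f4. Over all chromosomes with a summit, 0.532% of protein-coding genes were farther. Within 10 kb, 4.87% of X-linked protein-coding genes had a summit, and neither Pou3f4 nor Mamld1 was among them.

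Ttr encodes transthyretin, a carrier of thyroid hormone and, with retinol-binding protein, of retinol. Ttr (gene ID 22139) spans chr18:20664209-20674326. A summit at position 20670996 lay inside it, 6787 bp from its lower-coordinate end and 3330 bp from the other, with a score of 37.6 and rank 1283. This was the highest score of the 7 summits within 10 kb of a member and the only one of them above the list's median. A further 2 summits, 2147 bp apart, lay below the gene at 20640905 (score 8.21) and 20643052 (score 10.8), both within the gene model Gm16090. They were 23.3 and 21.2 kb from Ttr, which was their nearest protein-coding gene. Exons, introns and UTRs were not resolved with the gene table used here.

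Gc encodes the vitamin D-binding protein of plasma. The gene (gene ID 14473) spans chr5:89417511-89457898. Its nearest summit was 766 kb away at position 90224157, with a score of 72.0, inside Cox18, which encodes a mitochondrial assembly factor. That was the only summit within 1 Mb of Gc. The genes of chromosome 5, with 546 summits, had a median distance of 50.4 kb to a summit, and 8.51% of them were farther away than Gc. Gc and Pou3f4 thus stood in stretches without summits, on a chromosome rich in them for Gc and on one poor in them for Pou3f4. A missing summit shows only that no peak was called.

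**Figure D1:**
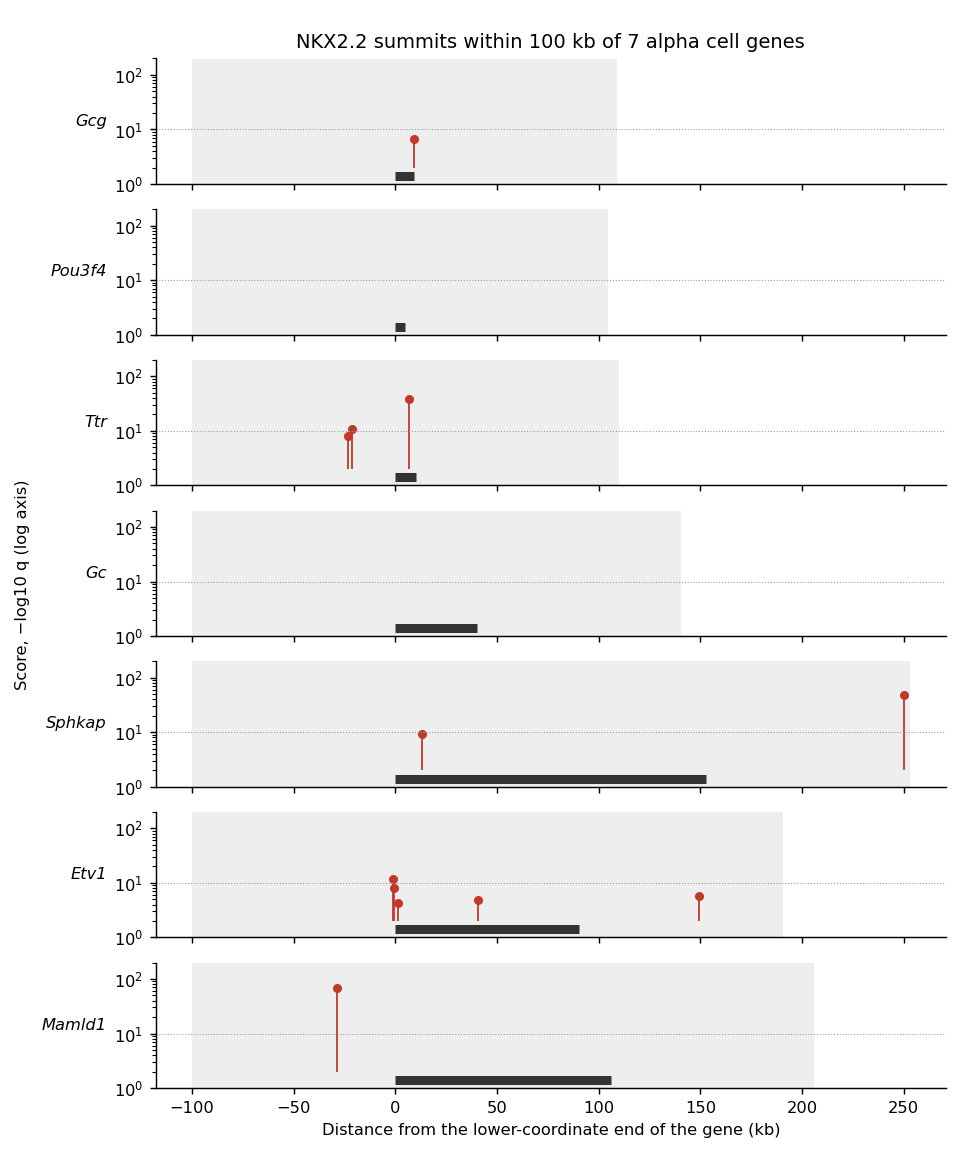
Summits within 100 kb of each of the 7 genes, 1 panel per gene. The x axis is the distance in kb from the gene's lower-coordinate end, the y axis the score (−log10 q, log axis), the dark bar the gene, grey the stretch searched and the dotted line a score of 10. Gcg has 1 low summit at its edge, Etv1 has 3 around its start, Mamld1 has 1 high summit outside it, and Pou3f4 and Gc have none.

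Of the member summits outside a gene, the farthest within 10 kb was the Etv1 summit at 1.37 kb. The next was the one 21.2 kb from Ttr. With so few summits, this gap describes the members only. In the gene body, 3 members had a summit, as did 13.4% of all protein-coding genes. The count of members was 4 at 10 kb, 5 at 50 kb and still 5 at 100 kb. The shares of all protein-coding genes at these distances were 25.8%, 43.8% and 55.3%. Gene length bears on these shares. Within 10 kb a summit was found for 20.6% of protein-coding genes under 20 kb long, where 2 of the 3 members of that size (Gcg and Ttr, not Pou3f4) had one. For genes of 20 to 100 kb the share was 28.9%, with Etv1 having a summit and Gc not. For genes over 100 kb it was 41.8%, with Sphkap having one and Mamld1 not. At a score minimum of 10, 2 of the 7 members had a summit within 10 kb, Ttr and Etv1, as did 18.2% of all protein-coding genes. With 7 genes and no test, these counts describe the members only.

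**Figure D2:**
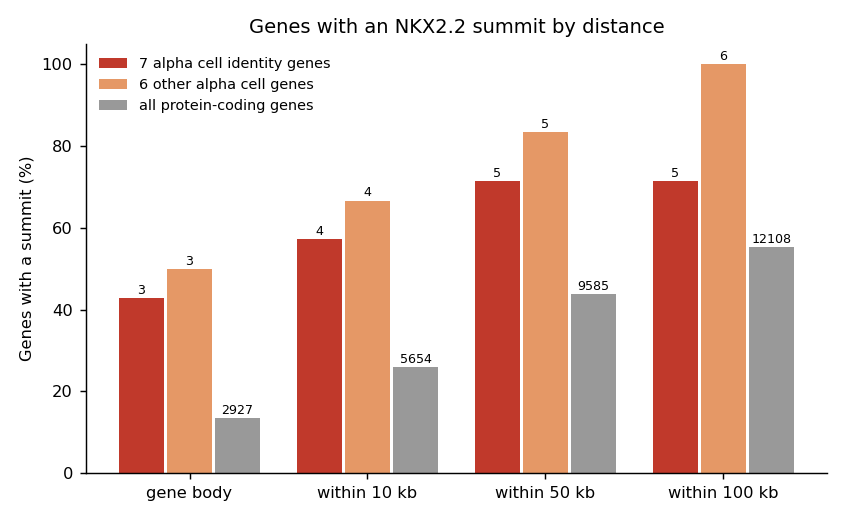
Share of genes with a summit (y axis, percent) by distance (x axis) for the 7 genes, 6 other alpha cell genes and all 21887 protein-coding genes. The number above each bar is the count of genes. Within 10 kb, 4 of the 7 and 4 of the 6 have a summit, as do 25.8% of all protein-coding genes.

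**Figure D3:**
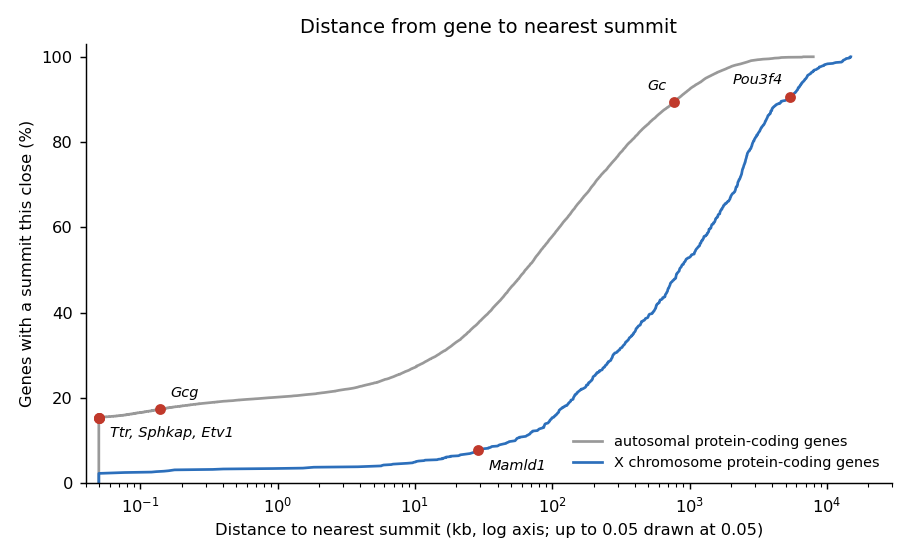
Cumulative share of genes (y axis, percent) by distance to the nearest summit (x axis, kb, log axis; distances up to 0.05 kb are drawn at 0.05). Grey is autosomal and blue X-linked protein-coding genes, and the red points place each member on its own curve: Ttr, Sphkap, Etv1 and Gcg at the near end, Mamld1 at 28.7 kb, Gc and Pou3f4 at the far end.

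The scores of the member summits were mostly low. The median of the 7 summits within 10 kb was 7.95, and 6 of the 7 were under the median of the whole list, 13.7. Widening to 100 kb gave 12 summits with a median of 8.71, of which 9 were under the list's median. The 3 above it, at Ttr, upstream of Sphkap and upstream of Mamld1, lay between ranks 595 and 1283. Each gene with a summit within 10 kb was also ranked by its highest one among the 5654 such genes, whose median highest score was 15.95. Ttr ranked 1202, Etv1 3604, Sphkap 4193 and Gcg 4800. Next to Gcg in that order were Fgfbp3, Gpatch1 and Selenot (each 6.79) and Hlcs (6.75), and next to Ttr were Dcc, Map1b and AU040320 (each 37.7) and Enthd1 (37.5). At Etv1, Gprin1, Pcmtd2, Polr3k and Sncb had the same score, with Crtc3 (11.83) next above and Pigu (11.81) next below. At Sphkap, Gnb1l had the same score, and Lrp12 was among 5 genes next above and Cdk8 among 8 next below, at 9.23 and 9.21.

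**Figure D4:**
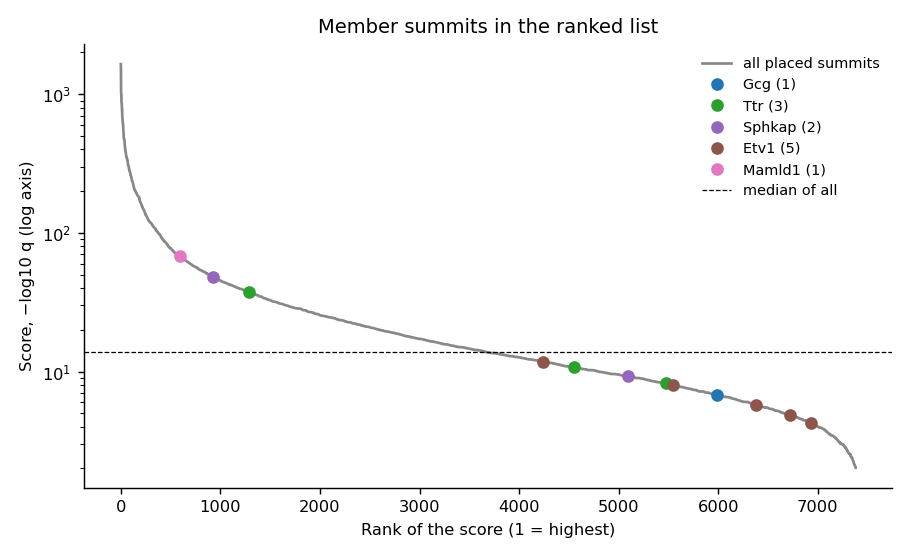
Scores (y axis, −log10 q, log axis) of all 7380 placed summits by rank (x axis, 1 is the highest), with the 12 summits within 100 kb of a member as coloured points and their number per gene in the legend. The points at Mamld1, Sphkap (upstream) and Ttr (inside the gene) lie above the dashed median, and the other 9 lie below it.

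Other alpha cell genes were read in the same way, and the counts are over the 6 that are reported here. At 10 kb or less, 4 of them had a summit, as did 25.8% of all protein-coding genes. The 4 were the transcription factor genes Irx1 and Irx2, with highest scores of 7.96 and 19.7, and the amino acid transporter genes Slc38a5 (100.5) and Slc7a2 (8.54). Slc38a5 and Smarca1 are on the X chromosome, where 4.87% of protein-coding genes had a summit within 10 kb. Smarca1, a chromatin remodeller gene, had its nearest one 29.5 kb away inside Ocrl, with a score of 12.2. Pcsk2, whose product cuts proglucagon to glucagon, had its nearest one 87.3 kb away inside Bfsp1, with a score of 75.4. At Irx1 one of 3 summits was 3 bp from a gene end, and at Irx2 the higher was 91 bp before an annotated start. The 51 bases around that Irx2 summit held neither AAGTG nor CACCC. The median score of the 7 summits within 10 kb of these genes was 7.96, beside 7.95 for the members.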

How the data were processed

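The analysis used 1 list of peak summits from 2 NKX2.2 ChIP and 2 input samples, grouped by their titles. The deposited values are taken to be −log10 q-values, from the MACS2 summit format and a lowest value of 2.03; no header states the unit. FastQC, Bowtie2, MACS2 and the build mm10 (GRCm38) are named in the submitters' processing notes, with no versions. Pooling of replicates and treatment of duplicate reads are not given in the sources used here. Start positions were raised by 1. The 4 summits off the assembled chromosomes were left out.

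Gene positions came from RefSeq annotation of GRCm38.p6 and promoter windows from RefSeq sequence, found for 6 of the 7 members. A gene was called when a summit lay in it or within the stated distance. Shares of all protein-coding genes serve as background, and no test was run. Words were searched on both strands; AAGTG lies within TAAGTG and CAAGTG. The members and lists were chosen with earlier results of these data known. Named genes are all members, the other alpha cell list (6 genes; others first put on it are not reported here and not counted), the nearest protein-coding gene of each summit within 100 kb of a member, and genes next to a member in highest score (most of the tied ones at Sphkap are not named). Counting was tested on simulated summits. Python 3.11.15, numpy 2.4.6, pandas 2.3.3 and matplotlib 3.10.9 were used.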

Additional observations from a re-analysis of the deposited data

How the results depend on the processing

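No paired analysis was possible because scores are given per peak and not per library, and so no replicate could be left out. The count of 4 members with a summit fell to 2, Ttr and Etv1, at a score minimum of 10, and the total of 7 summits fell to 2, while the share of all protein-coding genes fell from 25.8% to 18.2%. At that minimum the summit nearest to Gcg was 138195 bp away. In the gene body alone the total was 4, and within 100 kb it was 12. Each of these follows from the setting itself. The median score of the members' summits was 7.05 in the gene body alone, a setting chosen after seeing the data, 7.95 within 10 kb and 8.71 within 50 and 100 kb. Etv1 had 4 summits within 10 kb, 2 at a score minimum of 5 or in the gene body alone, and 1 at a minimum of 10. Merging summits within 500 bp, or giving each summit to its nearest protein-coding gene only, left 4 members and 7 summits. Neither setting could change these counts. Each of the 7 summits was at least 855 bp from any other and had the member as its nearest protein-coding gene. Of single-gene values under alternatives, 38 summit counts stayed within 1.5 times and 11 did not, 9 highest scores did and 2 did not, and 10 nearest distances did and 4 did not. Many of the unchanged summit counts were 0 at Pou3f4, Gc or Mamld1, and a stricter setting cannot raise a count of 0. Read depth is unknown, so weak binding at Pou3f4 or Gc below the peak threshold would not be seen.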
